A study of Mus musculus with 8 samples.

Results

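The genes described here encode the ATP-binding cassette (ABC) transporters of subfamilies A to G, measured in tumour-associated macrophages of mice. A gene was taken as a member when its symbol begins with Abc, followed by one of the letters a to g and a digit, and when a probe set of the array carried that symbol and no other. Such probe sets gave 45 of the 18193 genes with a probe set of their own. Where a gene had several probe sets, the one with the highest mean over the 8 arrays stood for it. Of the 45 genes, 31 had a mean signal above the 40th percentile of all genes (log2 6.0) and were tested with all other genes above it, 10916 in total, and 14 lay below it.

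The 4 E2f3-deleted arrays (replicates A, E, F and H) came from mice of genotype PyMT;Lys Cre:E2f3 f/f, and the 4 control arrays (replicates B, C, D and G) from PyMT;E2f3 f/f mice. All mice were 80 days old and of the FVB strain, and all carried the PyMT transgene, which encodes a viral oncoprotein that gives rise to mammary tumors, and the E2f3 allele flanked by recombination sites. Cells bearing F4/80, the surface protein encoded by Adgre1, were sorted from the tumors, and total RNA was hybridised to Affymetrix arrays. Signals are on a log2 scale, so a difference of 1 is a doubling. Cre recombinase is driven by the lysozyme gene of myeloid cells. No group carried Cre alone, so effects of Cre and of losing E2f3 cannot be told apart. Whether each array came from its own mouse is not stated, so the p-values measure the spread between arrays, part of which may be technical.

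ABC proteins bind and hydrolyse ATP at a pair of nucleotide-binding domains. In most of them that energy moves a substrate across a membrane, for example lipids in subfamily A, sterols and drugs in subfamily G, and drugs or organic anions in subfamilies B and C. Members of subfamily D sit in peroxisomes or lysosomes, and those of subfamilies E and F have no transmembrane part and act on ribosomes and translation. In macrophages the family is best known for Abca1 and Abcg1, which load cholesterol from engulfed cells and lipoproteins onto apolipoprotein A-I and high-density lipoprotein and are induced by the liver X receptors (LXR). E2F3 is a transcription factor of the cell cycle.

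Promoter windows are shown so that E2F motifs can be read beside the values. They span 300 bases around the annotated start, most of them before it, and belong to Abca1, the cholesterol exporter described first, and to Abca5, Abcb4, Abcc9 and Abcg2, for which the values of the groups did not overlap. The fifth gene without overlap, Abcc3, had no window in the set of windows used and was not searched. The sequences are those of RefSeq for build GRCm38.p6, 5′ to 3′ along the strand of the gene. Abca1 lies at chr4:53159846-53160145 on the minus strand, Abca5 at chr11:110337667-110337966 on the minus strand, Abcb4 at chr5:8893471-8893770 on the plus strand and Abcc9 at chr6:142702225-142702524 on the minus strand. Abcg2 has 3 annotated starts on the plus strand, at chr6:58584283-58584582, chr6:58596422-58596721 and chr6:58640296-58640595. Capitals mark a match, on either strand, to the E2F motif TTTNNCGC or to the GC box GGGCGG. Matches of the 2 motifs did not overlap each other in these windows.
Abca1: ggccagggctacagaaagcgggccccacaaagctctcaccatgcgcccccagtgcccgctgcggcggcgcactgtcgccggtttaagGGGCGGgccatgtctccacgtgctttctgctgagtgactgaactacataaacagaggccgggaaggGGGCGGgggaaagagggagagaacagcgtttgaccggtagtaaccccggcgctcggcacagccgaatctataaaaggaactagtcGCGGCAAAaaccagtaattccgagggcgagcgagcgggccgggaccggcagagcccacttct
Abca5: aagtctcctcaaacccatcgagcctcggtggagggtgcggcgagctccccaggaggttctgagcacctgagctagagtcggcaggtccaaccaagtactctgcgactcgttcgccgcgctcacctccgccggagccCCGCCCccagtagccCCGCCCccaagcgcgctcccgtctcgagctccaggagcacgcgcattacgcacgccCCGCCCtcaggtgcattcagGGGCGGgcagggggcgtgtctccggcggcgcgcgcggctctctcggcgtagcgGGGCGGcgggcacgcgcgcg
Abcb4: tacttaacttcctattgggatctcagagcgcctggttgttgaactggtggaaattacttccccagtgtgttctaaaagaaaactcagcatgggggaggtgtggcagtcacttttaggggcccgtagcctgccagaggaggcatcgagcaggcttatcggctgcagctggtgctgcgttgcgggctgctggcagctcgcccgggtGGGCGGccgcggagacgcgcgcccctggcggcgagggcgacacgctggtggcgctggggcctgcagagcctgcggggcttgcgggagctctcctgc
Abcc9: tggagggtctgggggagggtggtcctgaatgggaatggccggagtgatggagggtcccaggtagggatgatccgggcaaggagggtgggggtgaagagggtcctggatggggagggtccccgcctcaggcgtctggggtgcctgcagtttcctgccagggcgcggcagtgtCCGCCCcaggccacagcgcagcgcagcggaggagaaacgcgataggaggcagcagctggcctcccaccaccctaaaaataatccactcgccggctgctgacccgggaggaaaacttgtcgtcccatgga
Abcg2 start 1: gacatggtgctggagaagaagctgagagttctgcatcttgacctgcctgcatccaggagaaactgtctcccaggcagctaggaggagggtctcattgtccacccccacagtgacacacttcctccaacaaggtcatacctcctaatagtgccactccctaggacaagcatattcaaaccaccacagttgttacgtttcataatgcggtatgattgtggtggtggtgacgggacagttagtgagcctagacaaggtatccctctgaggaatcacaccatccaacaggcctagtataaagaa
Abcg2 start 2: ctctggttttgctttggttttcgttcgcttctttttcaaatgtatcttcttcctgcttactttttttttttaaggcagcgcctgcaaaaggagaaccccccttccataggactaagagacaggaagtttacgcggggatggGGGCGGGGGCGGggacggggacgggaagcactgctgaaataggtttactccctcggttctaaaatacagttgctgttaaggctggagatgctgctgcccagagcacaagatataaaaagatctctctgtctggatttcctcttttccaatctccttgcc
Abcg2 start 3: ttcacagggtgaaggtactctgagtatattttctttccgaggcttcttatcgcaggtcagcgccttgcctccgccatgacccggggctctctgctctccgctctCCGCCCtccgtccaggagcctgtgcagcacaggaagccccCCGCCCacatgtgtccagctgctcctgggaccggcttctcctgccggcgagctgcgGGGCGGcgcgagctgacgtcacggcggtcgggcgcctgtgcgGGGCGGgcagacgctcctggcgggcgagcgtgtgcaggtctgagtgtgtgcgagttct

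In the Abca1 window the E2F match is the run GCGGCAAA that begins at base 239. The other printed windows hold no E2F match, and all but the first of Abcg2 hold a GC box. The E2F motif was present in 2 of the 42 windows of ABC genes, those of Abca1 and Abca8b, a share of 4.76%, against 5.17% of all 32851 windows of the table. The GC box was in 21 of the 42 windows (50.0%), against 35.7% of all windows. Windows of 35 of the 45 genes were in the table. A match of letters is a description and not a binding site.

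The arrays had similar distributions, with medians from 5.65 to 5.69, but replicate H of the E2f3-deleted group stood apart. Its mean correlation with its group was 0.949, while that of the other 3 E2f3-deleted arrays was 0.972 to 0.976 and that of control arrays 0.985 to 0.989. The log2 signal of the E2f3 transcript was 7.63 ± 0.123 in E2f3-deleted and 7.67 ± 0.109 in control macrophages (SD, n = 4 each), a difference of −0.05 (limma, adjusted p = 0.842). Where its probe set lies relative to the deleted part is unknown, so it does not check the labels. Adgre1 had a log2 signal of 12.62, 12.66, 12.77 and 12.73 in E2f3-deleted macrophages, against 12.97, 12.89, 12.78 and 12.86 in controls. Its signal was high on all 8 arrays. All E2f3-deleted arrays lay below all controls by a narrow gap, a pattern found in 4.22% of all genes tested. The difference was −0.18 (limma, adjusted p = 0.275). The scan files named in the descriptions are lettered in the order of listing, A to D for controls and E to H for the deleted group. Only replicate H has the same letter in its title. Taken as a running index, the scan file letters leave the groups as titled. Read as replicate letters, they would move E2f3-deleted replicate F to the controls and control replicate B to the deleted group. Values given by scan file letter rest on the latter reading, for which there is no other sign in the labels.

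With all 8 arrays no ABC transporter passed the threshold, an adjusted p under 0.05 over all genes tested with limma, and the smallest adjusted p was 0.158, for Abcg2. The same held for all 10916 genes, of which 0% passed. At an unadjusted p under 0.05 there were 5 of 31 ABC genes, or 16.1%, against 14.2% of all genes tested. Of these, 3 were higher (7.27% of all genes) and 2 lower (6.9%) in E2f3-deleted macrophages. The same 5 genes were those whose 4 values in one group all lay on one side of the 4 values of the other, which was the case for 8.48% of all genes. The ATP-dependent drug pump gene Abcg2, the channel subunit gene Abcc9 and the lysosomal gene Abca5 had higher signals in E2f3-deleted macrophages, a pattern without overlap found in 4.26% of all genes. The organic anion pump gene Abcc3 and the phospholipid transporter gene Abcb4 had lower signals, a pattern found in 4.22% of all genes. Over the family 19 of 31 genes (61.3%) had a difference below 0 and 12 above it, and 58.7% of all genes tested had one below 0. The median difference was −0.09 for the ABC genes and −0.03 for all genes tested.

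**Figure D1:**
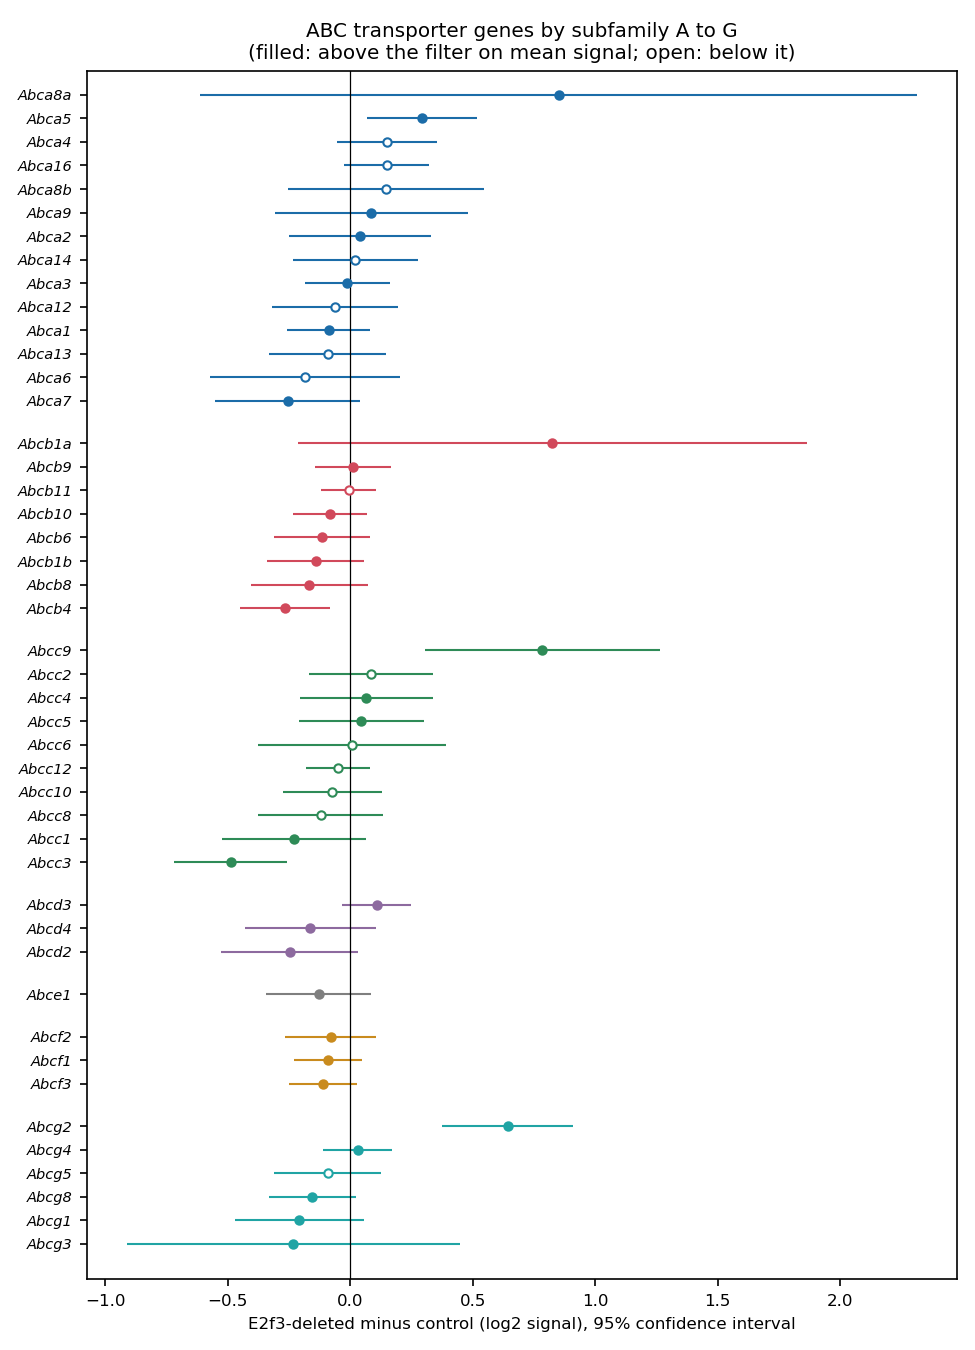
Difference in log2 signal, E2f3-deleted minus control, for each of the 45 ABC genes, grouped by subfamily A to G and ordered by size within each. Points are limma estimates with 95% confidence intervals (4 arrays in each group), filled for the 31 genes above the filter on mean signal and open for the 14 below it. The intervals of Abcg2, Abcc9 and Abca5 lie to the right of 0 and those of Abcc3 and Abcb4 to the left, and Abca8a and Abcb1a have the widest.

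By subfamily, the median difference was 0.04 in A (7 genes tested), −0.12 in B (7), 0.04 in C (5), −0.16 in D (3), −0.13 in E (1), −0.09 in F (3) and −0.15 in G (5). Differences above 0.5 were those of Abca8a in A, Abcb1a in B, Abcc9 in C and Abcg2 in G, so that each of these subfamilies held 1. The median of subfamily F on each array was −0.11, −0.10, −0.03 and −0.12 in E2f3-deleted macrophages, against 0.04, 0.03, −0.00 and −0.07 in controls, relative to the control mean of each gene. The same median of subfamily B was −0.09, −0.07, −0.12 and −0.21 in E2f3-deleted macrophages, against −0.01, 0.07, −0.11 and −0.01 in controls. In both subfamilies a control array fell among the E2f3-deleted arrays, and the groups overlapped in all 7. Some of these medians depended on single arrays. Leaving out 1 array at a time gave −0.02 to 0.10 in A, −0.14 to −0.09 in B, −0.04 to 0.08 in C, −0.23 to −0.10 in D, −0.20 to −0.06 in E, −0.13 to −0.08 in F and −0.18 to 0.0047 in G. The sign of A turned without E2f3-deleted replicate A or control replicate D or G, that of C without E2f3-deleted replicate A or H or control replicate D, and that of G without replicate H. The value of E was nearest to 0 without replicate A, and that of G was −0.03 without control replicate C.

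**Figure D2:**
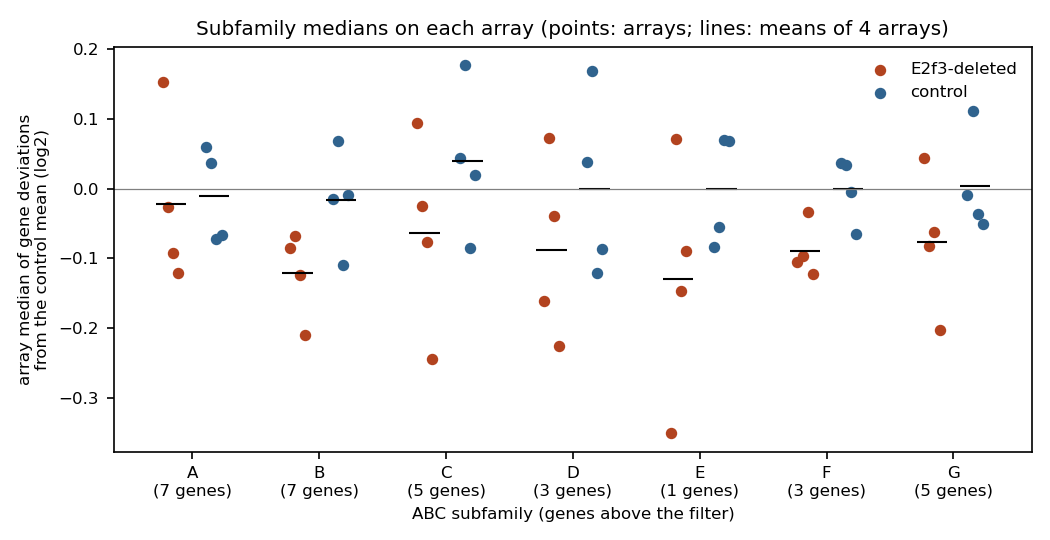
Median, over the tested genes of each ABC subfamily, of the deviation from the control mean in log2 units (vertical axis), with 1 point for each array of the E2f3-deleted group on the left and of the control group on the right. Horizontal lines are means of 4 arrays. In every subfamily the points of the groups overlap, and most E2f3-deleted points lie below 0.

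Subfamily A holds the large lipid transporters. Its leading member was Abca1, with a log2 signal of 13.08, 13.10, 13.06 and 13.04 in E2f3-deleted macrophages, against 13.10, 13.37, 13.09 and 13.07 in controls. The E2f3-deleted arrays lay close together, control replicate C lay above all others, and the groups overlapped. The difference was −0.09 (SE 0.0737, limma, adjusted p = 0.589), and −0.02 without control replicate C. Both dimmer Abca1 probe sets gave lower values without overlap. On the second probe set the signals were 8.83, 8.84, 8.81 and 8.68 in E2f3-deleted macrophages, against 8.96, 9.61, 8.84 and 8.96 in controls, a difference of −0.30 (limma, adjusted p = 0.514 over all probe sets). On the third they were 6.43, 6.55, 6.65 and 6.44 in E2f3-deleted macrophages, against 6.87, 7.40, 6.93 and 6.68 in controls, a difference of −0.45 (limma over all probe sets, adjusted p = 0.364). On the second the gap was smaller than the rounding, and on both control replicate C was the highest array. The mean over the 3 probe sets differed by −0.28 (limma, adjusted p = 0.331).

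Abca5, whose product is a protein of lysosomes and late endosomes, had a log2 signal of 7.31, 7.31, 7.40 and 7.65 in E2f3-deleted macrophages, against 7.02, 7.04, 7.14 and 7.30 in controls. The lowest E2f3-deleted array lay just above the highest control, replicate G. The means were 7.42 ± 0.159 and 7.13 ± 0.129 (SD, n = 4 each), a difference of 0.29 (SE 0.0978, 1.22-fold, limma, adjusted p = 0.275). Its second probe set, with a difference of 0.20, overlapped, and the gap on the first closed when the arrays were scaled again by quantiles or centred on their medians. By scan file letter the difference was 0.10 with overlap.

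Abca8a, a member of the same gene cluster with a less defined substrate, had a log2 signal of 7.83, 5.99, 6.13 and 9.07 in E2f3-deleted macrophages, against 6.46, 6.46, 6.24 and 6.45 in controls. Replicates H and A were far above the controls and replicates E and F below them. The difference of 0.85 (SE 0.636, 95% interval −0.61 to 2.32, limma, adjusted p = 0.553) was the highest of the family and was 0.25 without replicate H. The median of the 12 fibroblast markers, relative to the control means, was high on the same arrays. It was 0.83, −0.39, −0.07 and 2.36 in E2f3-deleted macrophages, against −0.08, −0.73, 0.36 and 0.45 in controls. Not every marker followed it. On array H, Thy1 lay below its control mean (7.61 against 7.69), and Col1a1 and Col1a2 lay below control replicates D and G. The summed linear signal of the 12 ran from 11543 to 53613 in E2f3-deleted macrophages and from 8987 to 22078 in controls. All 12 had a difference above 0 (0% below it, against 58.7% of all genes tested), with a median of 0.66, and 0 were at an unadjusted p under 0.05 (limma). Their part in the result was not tested, and in sorted bulk RNA more cells of a type and more RNA per cell cannot be told apart.

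In the RefSeq gene order of GRCm38.p6, Abca8b, Abca8a, Abca9, Abca6 and Abca5 lie next to each other in that order. Their differences were 0.14, 0.85, 0.09, −0.19 and 0.29, so the neighbours did not share a value. Abca8b and Abca6 were below the filter. Abca9, which in humans is induced as monocytes become macrophages, averaged 12.13 ± 0.248 in E2f3-deleted and 12.04 ± 0.295 in control macrophages (SD, n = 4 each), and its second probe set went the other way, with −0.12. The remaining tested members were Abca2, a lipid transporter of late endosomes and lysosomes (0.04), Abca3, which fills the lamellar bodies of lung cells with surfactant lipid (−0.01), and Abca7, a phospholipid transporter linked to phagocytosis (−0.26, SE 0.128, limma, adjusted p = 0.405). The signs of Abca2, Abca3 and Abca9 turned when single arrays were left out.

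The cholesterol partners of Abca1 and Abcg1, a list of LXR, its targets and enzymes of sterol handling, had 14 tested genes of 19 listed. Of these 3 had a difference above 0 and 11 below it (78.6%, against 58.7% of all genes tested). Their median was −0.11, against −0.03 for all genes tested, and 0 passed the threshold. The smallest p belonged to Srebf1, an LXR target that activates fatty acid synthesis, with 11.39, 11.32, 11.51 and 12.65 in E2f3-deleted macrophages, against 10.89, 10.66, 11.21 and 11.31 in controls. Replicate H was the highest array and the groups were separated by a narrow margin, at a difference of 0.70 (SE 0.301, limma, adjusted p = 0.350). Nceh1, a cholesteryl ester hydrolase of macrophages, had a difference of −0.27 (limma, adjusted p = 0.373). Scarb1, a receptor for high-density lipoprotein, had one of 0.57 (limma, adjusted p = 0.385).

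Abcg1 of subfamily G, the partner of Abca1 in cholesterol efflux, had a log2 signal of 12.35, 12.32, 12.12 and 11.99 in E2f3-deleted macrophages, against 12.33, 12.60, 12.19 and 12.50 in controls. Replicates F and H were below all controls, replicates A and E among them. The difference was −0.21 (SE 0.114, limma, adjusted p = 0.435), with −0.17 on the second probe set. The sterol exporter genes Abcg8 and Abcg5, which neighbour each other and together form a single pump of liver and gut, had differences of −0.15 and −0.09, and Abcg5 was below the filter. Abcg4, a sterol transporter best known in brain, had 0.03. Abcg3, a rodent relative of Abcg2, had −0.23 with wide spread (SE 0.295), and its difference was 0.0047 without replicate H.

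Abcg2, known as the breast cancer resistance protein, is a half-transporter that pairs with itself and exports drugs, porphyrins and urate. Its log2 signal was 10.08, 9.58, 10.00 and 9.91 in E2f3-deleted macrophages, against 9.16, 9.23, 9.42 and 9.20 in controls. All E2f3-deleted arrays lay above all controls, with replicate E the nearest to them. The means were 9.89 ± 0.222 and 9.25 ± 0.115 (SD, n = 4 each), a difference of 0.64 (SE 0.116, 95% interval 0.38 to 0.91), or 1.56-fold. The adjusted p was 0.158 with all arrays and 0.0185 without E2f3-deleted replicate E (limma), where 60 of all genes passed (0.55% of all genes tested). Across the fits that leave out 1 array the difference ran from 0.58 to 0.75. With arrays grouped by scan file letter it was 0.22 and the groups overlapped.

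**Figure D3:**
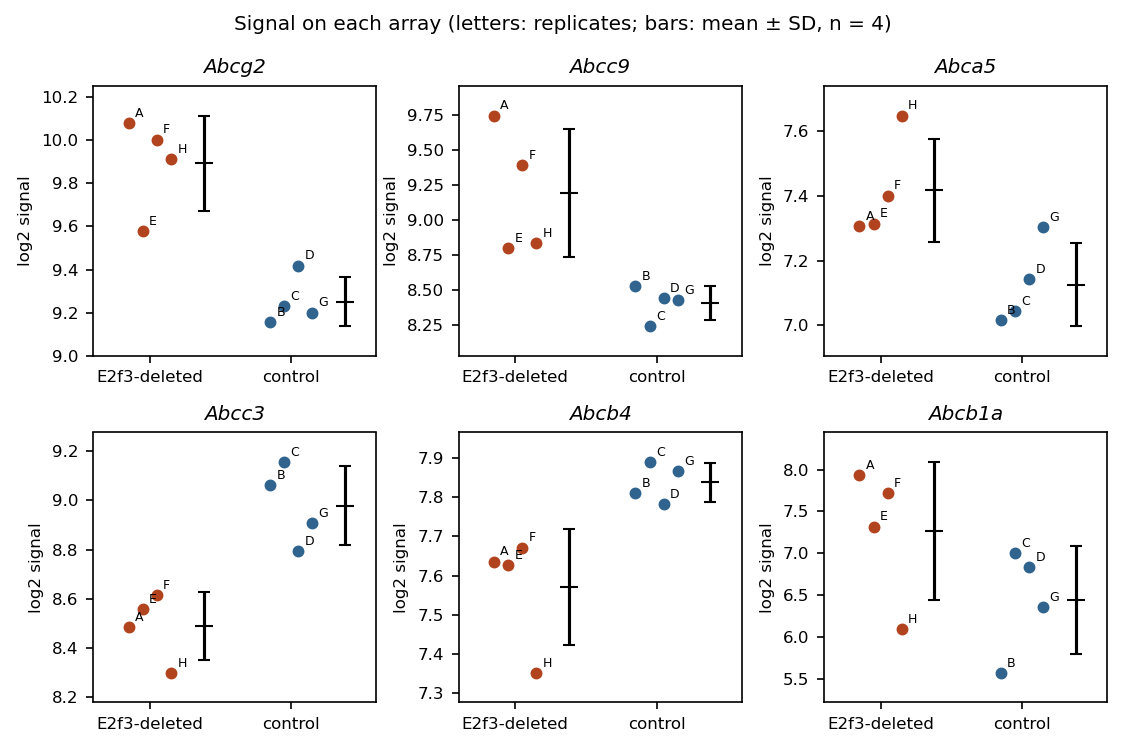
Log2 signal (vertical axes, each with its own range) of Abcg2, Abcc9, Abca5, Abcc3, Abcb4 and Abcb1a on each array, E2f3-deleted on the left and control on the right of each panel. Points are arrays with their replicate letters, and bars give the mean and SD of 4 arrays. The groups do not overlap for the first 5 genes, while for Abcb1a replicate H falls below 3 of the 4 controls.

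Subfamily C joins multidrug pumps with regulators of ion channels. Abcc9 encodes the sulphonylurea receptor SUR2, which surrounds the potassium channel Kir6.1, encoded by Kcnj8, and makes it respond to nucleotides. Its log2 signal was 9.75, 8.80, 9.39 and 8.83 in E2f3-deleted macrophages, against 8.53, 8.24, 8.44 and 8.43 in controls. Replicates A and F were the highest, and all E2f3-deleted arrays lay above all controls. The means were 9.19 ± 0.460 and 8.41 ± 0.121 (SD, n = 4 each), a difference of 0.78 (SE 0.209, 95% interval 0.30 to 1.27, 1.72-fold, limma, adjusted p = 0.218). The other probe sets gave 0.70 and 0.53, also without overlap. By scan file letter the difference was 0.35 and the groups overlapped.

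Kcnj8, which lies next to Abcc9 in the RefSeq order, had a log2 signal of 7.12, 6.86, 7.37 and 6.72 in E2f3-deleted macrophages, against 6.53, 5.98, 6.43 and 6.06 in controls. Again all E2f3-deleted arrays were above all controls, at a difference of 0.77 (SE 0.175, limma, adjusted p = 0.186). The alternative pore gene Kcnj11 differed by −0.07, and its neighbour Abcc8, which encodes the receptor SUR1, was below the filter with −0.12. Cftr, the chloride channel that is an ABC protein by another name, was below the filter as well, at 2.84 in E2f3-deleted and 2.78 in control macrophages.

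Abcc3, a pump for glucuronides, bile salts and other organic anions, had a log2 signal of 8.49, 8.56, 8.62 and 8.30 in E2f3-deleted macrophages, against 9.06, 9.15, 8.79 and 8.91 in controls. All E2f3-deleted arrays lay below all controls. The means were 8.49 ± 0.138 and 8.98 ± 0.161 (SD, n = 4 each), a difference of −0.49 (SE 0.10, 95% interval −0.72 to −0.26), with control signal 1.40 times the E2f3-deleted signal (limma, adjusted p = 0.178). Leaving out single arrays kept it between −0.55 and −0.42, and grouping by scan file letter gave −0.27 with overlap.

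Abcc1, which exports glutathione conjugates and leukotriene C4, had the highest signal of the subfamily, with 10.08, 10.48, 10.39 and 10.15 in E2f3-deleted macrophages, against 10.28, 10.74, 10.59 and 10.39 in controls. The groups overlapped at a difference of −0.23 (SE 0.128, limma, adjusted p = 0.440), and −0.30 on its second probe set. Abcc4, which exports cyclic nucleotides and prostaglandins, had a difference of 0.07. Abcc5, an exporter of cyclic nucleotides with 10 probe sets, had 0.04 on the brightest, and its 10 ranged from −0.18 to 0.09. The signs of both turned when single arrays were left out.

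The enzymes and regulators that feed these pumps, a list of conjugation and xenobiotic response genes, had 13 tested of 18 listed. Of these 3 had a difference above 0 and 10 below it (76.9%, against 58.7% of all genes tested). Their median was −0.10, and 0 passed the threshold. Ahr, the aryl hydrocarbon receptor, differed by 0.40 (limma, adjusted p = 0.379), Gsto1, a glutathione transferase, by −0.17 (limma, adjusted p = 0.500), and Hmox1, the inducible haem oxygenase, by −0.73 (limma, adjusted p = 0.530).

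Subfamily B contains P-glycoproteins, bile transporters and transporters of mitochondria and lysosomes. In the RefSeq order Abcb1a, Abcb1b and Abcb4 are neighbours, and their differences were 0.82, −0.14 and −0.27. They are close relatives in sequence, and cross-hybridisation between them was not tested. Abcb4, which moves phosphatidylcholine into bile, had a log2 signal of 7.64, 7.63, 7.67 and 7.35 in E2f3-deleted macrophages, against 7.81, 7.89, 7.78 and 7.87 in controls. All E2f3-deleted arrays lay below all controls, replicate H by the widest gap. The means were 7.57 ± 0.148 and 7.84 ± 0.0495 (SD, n = 4 each), a difference of −0.27 (SE 0.0792, limma, adjusted p = 0.244), and −0.19 without replicate H. By scan file letter it was −0.20 with overlap.

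Abcb1a, a P-glycoprotein that exports many drugs and marks the endothelium of the blood-brain barrier, had a log2 signal of 7.94, 7.32, 7.72 and 6.09 in E2f3-deleted macrophages, against 5.57, 7.0, 6.84 and 6.36 in controls. Replicates A, E and F lay above all controls and replicate H below 3 of them. The difference was 0.82 (SE 0.452, 95% interval −0.22 to 1.86, limma, adjusted p = 0.435). It was 1.22 without replicate H and 0.53 without control replicate B, and by scan file letter it was −0.25. The second probe set gave 1.10. Abcb1b, the other P-glycoprotein, had 8.65, 8.57, 8.62 and 8.52 in E2f3-deleted macrophages, against 8.75, 8.80, 8.50 and 8.89 in controls, with overlap (−0.14, limma, adjusted p = 0.479).

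Markers of vessels were higher on some of the same arrays. The 16 tested endothelial markers of 18 listed all had a difference above 0 (0% below it, against 58.7% of all genes tested), with a median of 1.23. Of the 16, 14 (87.5%) were at an unadjusted p under 0.05 (limma), against 14.2% of all genes tested, and 0 passed the threshold. Their median on each array, relative to the control means, was 1.99, 1.07, 2.01 and 0.02 in E2f3-deleted macrophages, against −0.45, −0.02, 0.44 and 0.03 in controls. Abcb1a was highest on the arrays A, E and F where they were high, and lay below the control mean on array H, where their median was 0.02. Their summed linear signal ran from 2765 to 12582 in E2f3-deleted macrophages and from 1897 to 3780 in controls. Of 11 tested pericyte and smooth muscle markers, a list that includes Kcnj8, 10 were above 0 and 1 below it (9.09%, against 58.7% of all genes tested). At an unadjusted p under 0.05 (limma) there were 2 of the 11 (18.2%), and 0 passed the threshold. Their array medians were 1.18, 0.32, 1.35 and −0.41 in E2f3-deleted macrophages, against −0.13, 0.15, −0.08 and 0.04 in controls. Their summed linear signal ran from 3632 to 15196 in E2f3-deleted macrophages and from 5066 to 6127 in controls.

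On array H the endothelial median lay within the range of the controls, and the pericyte and smooth muscle median lay below it. On that array Abcg2 lay 0.66, Abcc9 0.42 and Kcnj8 0.47 above their control means. For Abcc9 the values on arrays E and H (0.39 and 0.42) were similar, and those on arrays A and F (1.34 and 0.99), where both lists were highest, were larger. Mast cell markers were high on array H, with a median of 3.99, and 0.75, 1.23 and −0.34 on arrays A, E and F. Fibroblast markers were high on array H as well, with a median of 2.36. The part of these cells in the values of Abcb1a, Abcg2 and Abcc9 was not tested. Macrophage identity markers had a difference below 0 in 12 of 13 genes (92.3%, against 58.7% of all genes tested), with a median of −0.14. Of the 13, 4 (30.8%) were lower without overlap, against 4.22% of all genes: Adgre1, Cd68, Mertk and Sirpa. The summed linear signal of the list ran from 127278 to 134836 in E2f3-deleted macrophages and from 137340 to 147106 in controls. No marker reads 0 on this scale. The 12 epithelial markers all had a difference above 0 (0% below it, against 58.7% of all genes tested), with a median of 0.43. Their array medians were 0.31, 0.79, 0.77 and −0.23 in E2f3-deleted macrophages, against −0.33, −0.44, 0.74 and 0.05 in controls. The lists of lymphocyte and neutrophil markers, with 4 genes tested in each, had median differences of −0.39 and 0.21.

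**Figure D4:**
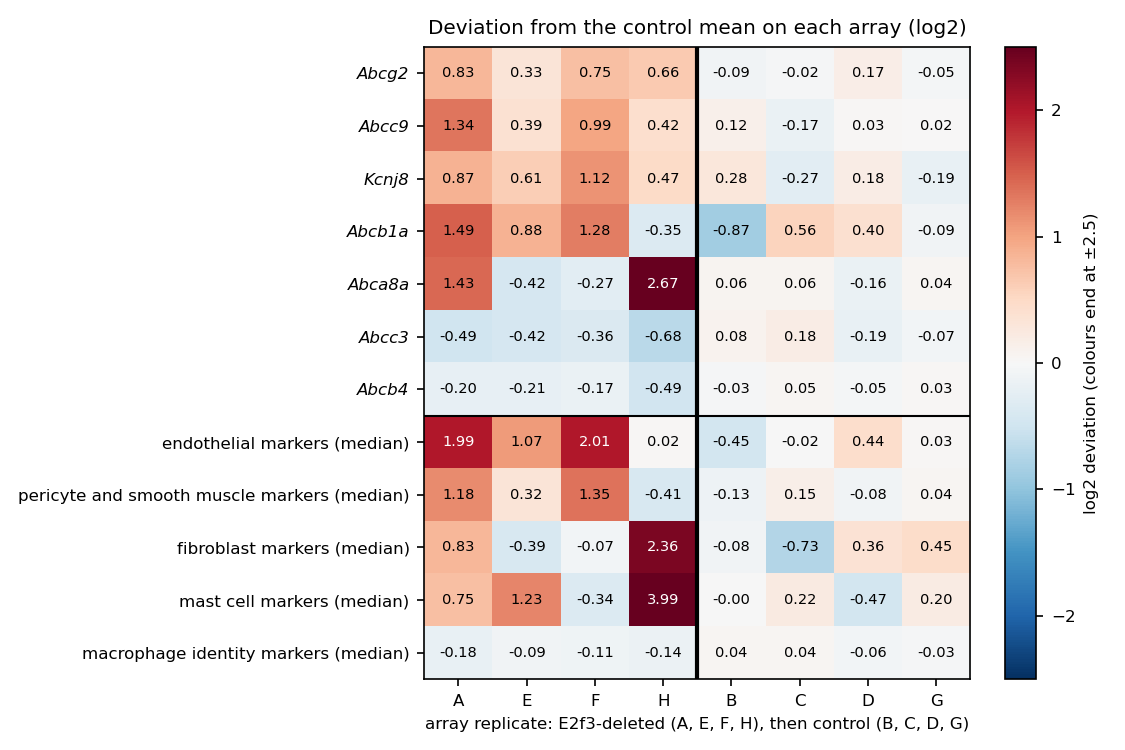
Deviation from the control mean in log2 units on each array, E2f3-deleted arrays A, E, F and H on the left and control arrays B, C, D and G on the right, for 6 ABC genes and Kcnj8 (upper rows) and for the medians of 5 marker lists (lower rows). Red is above and blue below the control mean. Abcg2 and Abcc9 are above it on all 4 E2f3-deleted arrays, while Abcb1a and the endothelial list are high on A, E and F and Abca8a and the fibroblast list on H and A.

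Among the intracellular members of subfamily B, Abcb8 and Abcb10 act in the inner membrane of mitochondria and Abcb6 carries porphyrins. Their differences were −0.17, −0.08 and −0.12, with adjusted p from 0.486 to 0.577 (limma). The partner list of haem and iron-sulphur genes had 15 tested, 4 above and 11 below 0 (73.3%, against 58.7% of all genes tested). Its median was −0.09, and 0 passed the threshold. Hscb, a co-chaperone of iron-sulphur assembly, differed by −0.20 (limma, adjusted p = 0.337), Alas1, the first enzyme of haem synthesis, by −0.13 and Tmem14c, a mitochondrial protein needed for haem synthesis, by −0.13. Abcb9, a peptide transporter of lysosomes, differed by 0.01, and its sign turned with single arrays. Tap1 and Tap2, the peptide transporters of antigen presentation that are subfamily B proteins by another name, differed by 0.05 and 0.11. Of 16 tested genes of that pathway 12 were above and 4 below 0 (25%, against 58.7% of all genes tested). Their median was 0.03, and 0 passed the threshold. Tapbp (0.10) and Psme1 (0.07) were among those with the smallest p.

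Subfamily D serves organelles, with fatty acids and cobalamin among its substrates. Abcd3, which brings branched fatty acids and bile acid precursors into peroxisomes, had a log2 signal of 10.74, 10.82, 10.87 and 10.94 in E2f3-deleted macrophages, against 10.66, 10.72, 10.78 and 10.77 in controls. The arrays overlapped at a difference of 0.11 (SE 0.0604, limma, adjusted p = 0.449), and its second probe set gave −0.07. Abcd2, for very long chain fatty acids, had 6.82, 6.68, 6.68 and 6.76 in E2f3-deleted macrophages, against 7.03, 7.31, 6.71 and 6.87 in controls. One control, replicate D, fell among the E2f3-deleted arrays, at a difference of −0.25 (SE 0.121, limma, adjusted p = 0.397), or −0.14 without control replicate C, and its 4 probe sets were all below 0. Abcd4, which takes cobalamin out of lysosomes, differed by −0.16, and its second probe set by 0.03. The peroxisome list had 11 genes tested, 4 above and 7 below 0 (63.6%, against 58.7% of all genes tested), with a median of −0.08 and 0 past the threshold. Its smallest p belonged to Pex19, which inserts peroxisomal membrane proteins (−0.15), Acaa1a, a thiolase (−0.09), and Hsd17b4, an enzyme of fatty acid oxidation (−0.10).

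Subfamilies E and F act on the ribosome. Abce1, which splits ribosomes after termination, had a log2 signal of 9.60, 10.02, 9.80 and 9.86 in E2f3-deleted macrophages, against 9.86, 9.89, 10.02 and 10.02 in controls. Replicate A was the lowest, replicate E lay among the highest, and the difference was −0.13 (SE 0.0927, limma, adjusted p = 0.537), or −0.06 without replicate A. Abcf1, a factor of translation initiation, had 10.71, 10.72, 10.73 and 10.53 in E2f3-deleted macrophages, against 10.78, 10.72, 10.81 and 10.73 in controls. Replicate H was the lowest array and the groups overlapped. The 6 Abcf1 probe sets all differed by less than 0, from −0.15 to −0.0043, and that of the brightest was −0.09 (SE 0.0611, limma, adjusted p = 0.509), or −0.04 without replicate H. Abcf3, a relative that in mice limits flaviviruses, had 8.89, 9.02, 9.11 and 8.99 in E2f3-deleted macrophages, against 9.15, 9.15, 9.11 and 9.05 in controls. It overlapped at −0.11 (SE 0.0605, limma, adjusted p = 0.426), and Abcf2 differed by −0.08, or −0.02 without control replicate B. Among 10 tested genes of ribosome recycling and translation, 2 were above and 8 below 0 (80%, against 58.7% of all genes tested). Their median was −0.09, and 0 passed the threshold.

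The smallest p of that list belonged to Gcn1, a ribosome-bound activator of the amino acid starvation kinase, with 7.12, 7.20, 7.13 and 7.10 in E2f3-deleted macrophages, against 7.29, 7.23, 7.34 and 7.37 in controls. The groups did not overlap at a difference of −0.17 (limma, adjusted p = 0.253). Eif6, which keeps the large ribosomal subunit free, was also lower without overlap (−0.19, limma, adjusted p = 0.267), and Eif2s3x, a subunit of initiation factor eIF2, differed by −0.11.

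The 14 genes below the filter had mean signals from 2.53 (Abca16) to 5.05 (Abcc10), in the range where an array separates expressed from silent genes poorly. They were the retinal Abca4, the testis genes Abca14 and Abca16, the skin lipid transporter Abca12, Abca13, Abca6 and Abca8b of subfamily A, the bile salt pump Abcb11, Abcc2, Abcc6, Abcc8, Abcc10 and Abcc12 of subfamily C, and Abcg5. Their differences ran from −0.19 for Abca6 to 0.15 for Abca4, with 8 below and 6 above 0, and 0 were at an unadjusted p under 0.05 (limma, smallest adjusted p = 0.477).

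Several probe sets of a gene give a check within the same arrays. The 45 genes had 92 probe sets, and 26 genes had more than 1. In 17 of the 26 genes all probe sets went in 1 direction and in 9 they went both ways. Groups did not overlap for 11 of the 92 probe sets (12%), against 6.37% of all 34945 probe sets with 1 symbol. At an unadjusted p under 0.05 there were 10 of 92 (10.9%), the same as the 10.9% of all probe sets. The 11 were 3 of Abcc9, 2 of Abca1 and 1 each of Abca5, Abcb4, Abcc3, Abcc5, Abcf1 and Abcg2. Those of Abcc5 (−0.18) and Abcf1 (−0.12) were not the brightest of their genes.

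**Figure D5:**
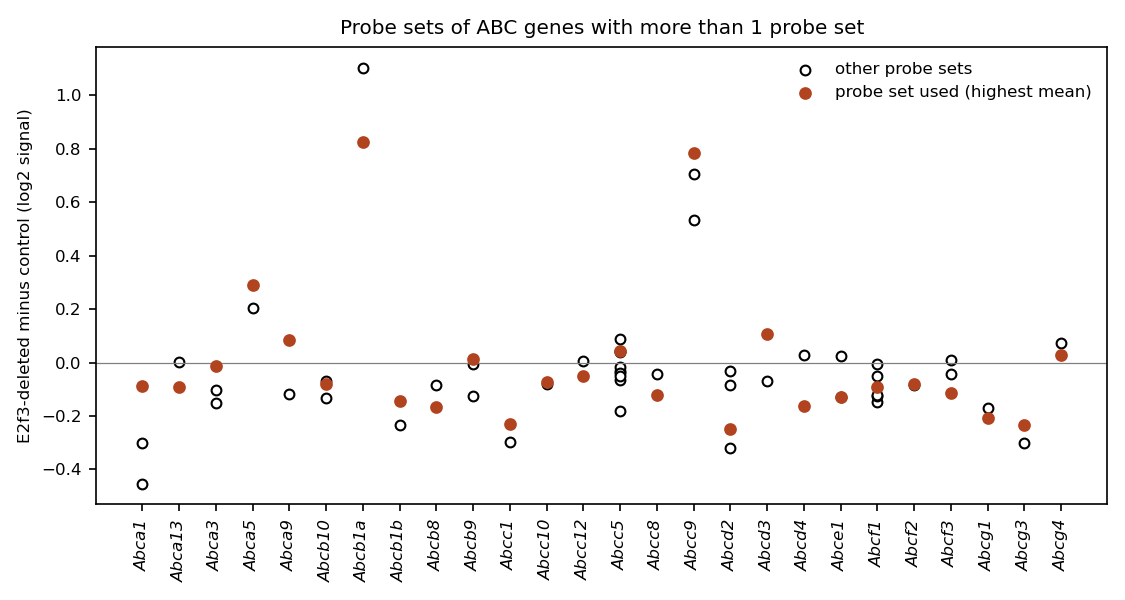
Difference in log2 signal, E2f3-deleted minus control (vertical axis), of every probe set of the 26 ABC genes with more than 1, with the probe set of highest mean filled. All 3 probe sets of Abcc9 and both of Abcb1a are above 0, all 3 of Abca1 and all 6 of Abcf1 are below it, and those of Abcc5 lie on both sides.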

How the data were processed

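The members and the gene lists were chosen with earlier results of these data known. Total RNA was extracted with Trizol and labelled as biotinylated cRNA, per the labels' protocols. The values are log2 signals of 45101 probe sets, deposited by the authors after RMA, per the submitters' processing notes. Its version is not given in the sources used here. This method corrects background, equalises the arrays' distributions and summarises probes, which would hide a change common to most genes. The number of arrays limits precision.

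Groups came from the titles. No replicate letter occurs in both groups, so no arrays were paired. The highest correlation of a pair of arrays was 0.991, and none was taken as a repeat. By the platform annotation of probe sets, 34945 had 1 symbol, 932 several, 9160 none and 64 were controls. All 45 member symbols were found in a RefSeq table of GRCm38.p6, used only for names and neighbours. Differences are E2f3-deleted minus control, tested two-sided with limma 3.58.1 in R 4.3.3 (lmFit, eBayes, Benjamini-Hochberg) over 10916 genes. Genes below the filter took their values from a fit without it. The smallest two-sided p of an exact permutation test is 0.0286 here.

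Full values per array are given for members at an unadjusted p under 0.05 or without overlap, and in each subfamily for the highest mean and the largest absolute difference. Each partner list names the 3 genes with the smallest p, and Tap1, Tap2 and Cftr. Values of second probe sets, of some other genes and of Adgre1 were chosen after they were seen. In the promoter windows letters for LXR elements, one form of them picked after the Abca1 window was read, and TATAAA were also tried and are not described.

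Arrays of the 10916 genes were simulated with some genes set to change. The test called 65.7% of those changed by log2 0.5, 91.0% at log2 1 and 97.0% at log2 2. Of 180 calls 11 were false. Each gene was drawn on its own from a normal distribution with its spread within groups, without any effect shared by genes of an array. These shares therefore do not tell how many such changes would be called on the real arrays, where 0 genes passed. Alternatives were array weights, leaving out each array, averaged probe sets, all probe sets, a 60th percentile filter or none, median centring, a second quantile normalization, a trended robust prior, an adjusted p of 0.1 and grouping by scan file letter.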

Additional observations from a re-analysis of the deposited data

Results flagged for a closer look

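In 6 cases an array stood far from the other 3 of their group in single genes (Dixon's test, 95% level), among 90 groups of 4 arrays examined, where 4.5 would be expected at 1 in 20. Replicate H of the E2f3-deleted group was the lowest for Abcb4, at 7.35 against 7.63 to 7.67, and for Abcf1, at 10.53 against 10.71 to 10.73. Replicate F of the E2f3-deleted group was the highest for Abcb9, at 6.14 against 6.03 to 6.04. Replicate E of the E2f3-deleted group was the highest for Abcc6, a gene below the filter, at 3.91 against 3.17 to 3.25. Control replicate C was the highest for Abca1, at 13.37 against 13.07 to 13.10, and control replicate D the lowest for Abca8a, at 6.24 against 6.45 to 6.46.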

How the results depend on the processing

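No paired analysis was possible because no replicate letter occurs in both groups. The number of genes past the threshold was 0 with all arrays and 0 to 60 when 1 array was left out, 60 without E2f3-deleted replicate E and 14 without replicate H. For ABC genes it was 0 to 1, the 1 being Abcg2 without replicate E. ABC genes at an unadjusted p under 0.05 numbered 3 with the 60th percentile filter, 2 by scan file letter and 5 to 8 without single arrays (8 without control replicate D). ABC genes without overlap numbered 3 with the 60th percentile filter, 0 by scan file letter and 5 to 8 without single arrays (8 without E2f3-deleted replicate E or F). Fewer genes were tested at the 60th percentile, where the median difference was 0.107 in subfamily D and 0.217 in G. Leaving out single arrays gave −0.184 to 0.0047 in subfamily G. Of 179 counts and medians under an alternative, the other 165 stayed within 1.5 times the count or within 1 SD between arrays (the larger of the groups) of the median. That still let signs turn: the subfamily A median was −0.051 with the 60th percentile filter and −0.016 with averaged probe sets, and that of C −0.022 with no filter, −0.017 with averaged probe sets and −0.014 with array weights. With averaged probe sets the D median was −0.068. Of single genes, 546 of 571 values kept direction and side of the threshold.

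Signs turned in 24 cases. By scan file letter they were Abcb1a (−0.25), Abcb10 (0.046), Abcb9 (−0.023), Abcf2 (0.057), Abca3 (0.014) and Abca6 (0.11). With array weights they were Abca2 (−0.061), Abca3 (0.012) and Abcc5 (−0.014), with the mean of probe sets Abca9 (−0.016) and Abcc5 (−0.017), and with further quantile normalization Abcb9 (−0.0040). Without single arrays the ranges were −0.046 to 0.14 for Abca2, −0.067 to 0.043 for Abca3, −0.035 to 0.20 for Abca9, −0.034 to 0.054 for Abcb9, −0.033 to 0.17 for Abcc4, −0.040 to 0.10 for Abcc5 and −0.38 to 0.0047 for Abcg3. The causes were not tested. Differences that kept their sign but moved by over 1.5 times without 1 array, beside those given with the gene, were those of Abca6, a gene below the filter (−0.34 to −0.03), Abca7 (−0.15 without replicate H), Abcb1b (−0.22 and −0.09 without control replicates D and G), Abcb6 (−0.04 without control replicate D), Abcb8 (−0.09 without control replicate C or replicate H), Abcb10 (−0.05 without control replicate B or replicate F), Abcc1 (−0.15 without control replicate C), Abcd4 (−0.10 without replicate H), Abce1 (−0.20 without replicate E), Abcf2 (−0.14 without control replicate G) and Abcg4 (0.0038 to 0.066).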

Other observations

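RNA of Gapdh was represented more by its 3′ than by its 5′ control probe sets in both groups. The log2 signal of the 3′ minus the 5′ probe set was 1.67 ± 0.167 in E2f3-deleted and 1.45 ± 0.0637 in control macrophages (SD, n = 4 each, exact two-sided permutation p = 0.0571), and its part in the differences of ABC genes was not tested.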
